A study of Mus musculus with 18 samples.

Results

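Genes that mark progenitor-like and sheath fibroblasts, 10 in all, were followed in cultured mouse tail tendon fibroblasts (TFs): Pi16, Clec3b, Dpp4, Fap, Ly6a, Cd34, Thy1, Pdgfra, Pdgfrb and Mfap5. They were found by their symbols among the 55491 rows of the gene count table, where each of the 10 matched 1 row and each passed the filter on low counts that left 16174 genes for testing. They were chosen by gene name, with Pi16 and Fap selected on their counts in Hif1a knockout against control TFs, so comparisons between those genotypes are given as descriptions, with no test.

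TFs crawled out of collagen gels from the tails of adult male and female mice on a mixed C57BL6J/129S1 background, were passaged, and spent 4 days in 20% or 1% oxygen before poly-A RNA-seq. Ctrl TFs are labelled wild-type, and the study's methods describe the cultured Ctrl cells as Cre-negative cells of a floxed Hif1a line. cKO TFs are labelled Hif1a knockout and came from Hif1a fl/fl;ScxCre mice, in which the Scleraxis promoter drives Cre, so that only cells with a tenogenic history were meant to lose Hif1a. In the remaining arm, wild-type labelled TFs received Cre in gesicles, which are cell-derived vesicles. Each of the 3 arms (Ctrl, cKO and gesicle-treated Ctrl) had 3 libraries at each oxygen level, which makes 6 groups and 18 libraries.

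PI16 is a secreted or membrane-anchored protein of the CAP family, and cells with Pi16, Dpp4 and Ly6a form a population of fibroblasts around vessels, in fascia and in the outer layers of many organs that is regarded as a reserve from which specialised fibroblasts arise. Tendon fascicles are wrapped in a sheath (the paratenon and the tissue between fascicles) whose cells have been described with such markers, whereas the fascicle itself holds tenocytes rich in type I collagen. PDGFRα and PDGFRβ are the receptor tyrosine kinases for platelet-derived growth factors. PDGFRα is used to mark fibroblasts at large, and PDGFRβ is shared by fibroblasts and the mural cells of vessels. Hypoxia-inducible factor 1α, the protein that Hif1a encodes, is degraded when oxygen is plentiful and switches on genes when it is scarce.

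Library totals ranged from 26967440 to 51806453 estimated counts in 17 libraries, and the cKO 1% O2 replicate 1 library held 6857558. Levels are given as CPM, counts scaled to library size with trimmed mean of M values (TMM) factors, and 3 counts, taken as the floor, corresponded to 0.0579 to 0.437 CPM. Hif1a itself was not lower in the cKO libraries, with 377.1 ± 72.8 CPM (SD, n = 3) in cKO and 348.3 ± 19.6 CPM in Ctrl at 20% O2, and 443.3 ± 54.3 against 419.7 ± 63.0 CPM at 1% O2. In gesicle-treated TFs Hif1a was 361.9 ± 31.0 CPM at 20% and 383.5 ± 12.35 CPM at 1% O2. By qPCR after a longer culture, the study reported reduced Hif1a in tail TFs of the knockout mice. Counts summed over the whole gene do not show whether the floxed exon was lost, in cKO or in gesicle-treated TFs. Of 8 hypoxia genes used to check the oxygen labels, 6 were called higher in 1% O2 in Ctrl, 5 in cKO and 6 in gesicle-treated TFs. Xist and Y-linked counts put replicate 1 as male and replicates 2 and 3 as female in the Ctrl and gesicle groups, and the reverse in the cKO groups. The cKO 20% O2 replicate 2 library had the highest mitochondrial share (1.02% of counts, against a lowest of 0.346% in a gesicle-treated library) and stood apart from its group in several markers below.

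All 10 genes are protein-coding and lie in GRCm38 at the following places. Dpp4 (chr2:62330073-62412231) and Fap (chr2:62500943-62574075) are neighbours on the minus strand, 88.7 kb apart with 1 gene, Gcg, annotated between them. Pi16 (chr17:29317680-29330593), Cd34 (chr1:194938819-194961279), Pdgfra (chr5:75152292-75198215), Pdgfrb (chr18:61045150-61085061), Mfap5 (chr6:122505845-122529290), Thy1 (chr9:44043384-44048579) and Clec3b (chr9:123150946-123157432) are on the plus strand, and Ly6a (chr15:74994877-74998031) is on the minus strand. Exons of Pi16, Dpp4, Cd34 and Pdgfra overlap annotated antisense transcripts, and how the counting used strand is not given in the sources used here. Of the 100-base stretches of Ly6a transcripts, 1.45% also occur in Ly6c1, its family neighbour, and none of the other 9 genes shared such a stretch with another gene.

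For the labelled cell type, tenocyte markers were read out: Col1a1 averaged 1870.3 to 6335.8 CPM and Tnmd 40.9 to 119.4 CPM across groups. Of the same list, Scx averaged 10.2 to 15.6 CPM. Kera averaged at most 0.32 CPM in any group and did not pass the filter on low counts. The sheath gene Tppp3 averaged only 0.833 to 1.42 CPM, while Prg4, which encodes the lubricant lubricin, averaged 144.1 to 260.2 CPM. Several defining genes of other cells were at or near 0: Cldn5 of endothelium and Cd3e of T cells had no count in any library, as did Myf5 and Pax7 of muscle precursors, and Pecam1 and Ptprc averaged at most 0.182 and 0.0539 CPM in any group. Other genes of those lists were expressed, with group means of 19.1 to 53.7 CPM for Tek of endothelium, 13.5 to 17.2 CPM for Lyz2 of myeloid cells, 12.6 to 34.9 CPM for Acta1 of muscle, 11.8 to 61.2 CPM for Cspg4 and 13.2 to 46.1 CPM for Myh11 of mural cells, and 7.02 to 11.3 CPM for S100b of Schwann cells. In bulk RNA, fewer cells of a type and less RNA per cell cannot be told apart, so a level below may reflect either.

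The set of RefSeq promoter windows at hand (GRCm38.p6) held 4 of the 10 genes, Cd34, Dpp4, Pdgfra and Pi16. Promoters of the other markers were not searched. Pi16's window lies inside an annotated exon, and Dpp4, low in Ctrl and several-fold higher in cKO TFs, is shown as a place to look for the letters that HIF binds. The window is the 250 bases before the RefSeq start (chr2:62412232-62412481, minus strand, written 5′ to 3′), and capitals mark CG pairs, which both HIF core motifs contain.
Dpp4 promoter: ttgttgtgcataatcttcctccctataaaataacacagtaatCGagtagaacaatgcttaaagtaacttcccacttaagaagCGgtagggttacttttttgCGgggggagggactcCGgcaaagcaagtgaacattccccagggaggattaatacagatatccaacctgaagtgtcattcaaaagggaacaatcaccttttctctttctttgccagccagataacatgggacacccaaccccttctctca
The motifs ACGTG and GCGTG were searched on both strands, where CACGTG would count for both directions. Neither was present in the Dpp4 window or in those of Cd34, Pdgfra and Pi16, while 38.6% of the 32851 promoter windows of that length held at least 1. The Dpp4 window had 4 CG pairs and 43.6% G + C, against medians of 6 pairs and 52.4% over all windows. The absence of these letters says nothing about binding elsewhere at these genes.

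Scaled by exon length, the markers covered a wide range, and the order was led by Ly6a (Sca-1, a membrane-anchored surface antigen of mouse stem and progenitor cells) at 1539 CPM per kb averaged over the 18 libraries. Mfap5, which encodes a glycoprotein of the microfibrils that carry elastin, was second at 181 CPM per kb. These 2 genes did not overlap with each other or with any other marker in any library. Cd34 (a sialomucin of progenitor and endothelial cells) at 54.9 and Pdgfrb at 46.8 CPM per kb overlapped, as did Thy1 (CD90, a surface antigen of mesenchymal cells) at 17.3 with Pdgfrb above it and Pi16 at 9.16 below it. Clec3b (tetranectin, a plasminogen-binding lectin) followed at 6.25 and Pdgfra at 4.29 CPM per kb, with overlapping ranges. Dpp4 (CD26) and Fap, sister serine proteases that cut after proline, were far below the rest at 0.214 and 0.106 CPM per kb, overlapping each other but not Pdgfra. The surface antigens Ly6a, Cd34 and Thy1 were thus abundant, whereas the proteases rested on few counts.

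**Figure D1:**
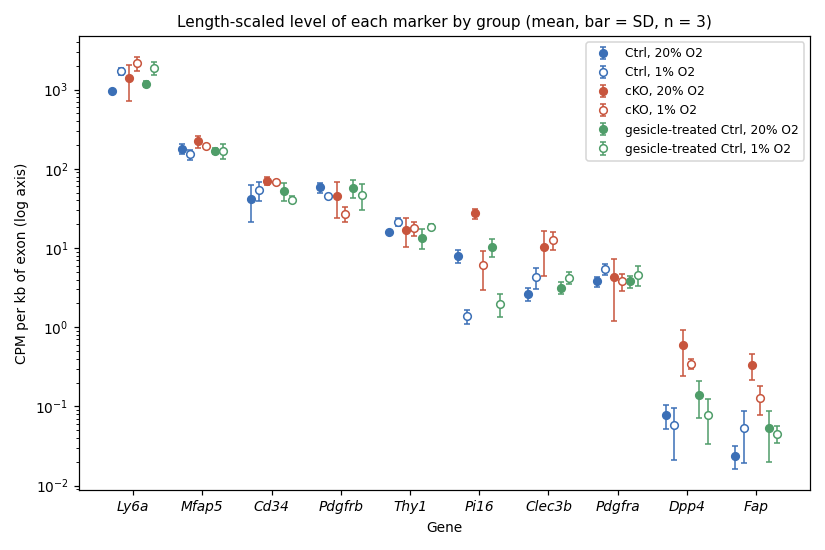
Mean level of each marker in CPM per kb of exon (log axis) in each of the 6 groups, with bars for the SD over 3 libraries, filled symbols for 20% O2 and open symbols for 1% O2. Ly6a is highest and Dpp4 and Fap lowest in every group, and Pi16 has the widest spread of the abundant genes, from 1.39 to 27.3 CPM per kb.

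Within this order Pi16 changed place. In Ctrl TFs at 20% O2, Pi16 had rank 6 at 7.92 ± 1.39 CPM per kb, above Pdgfra (3.79 ± 0.544) and Clec3b (2.65 ± 0.51) with no overlap. At 1% O2 it had rank 8 at 1.39 ± 0.279 CPM per kb, below both and again with no overlap. In cKO TFs at 20% O2 Pi16 reached 27.3 ± 4.06 CPM per kb, rank 5, overlapping its neighbours Pdgfrb and Thy1.

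**Figure D2:**
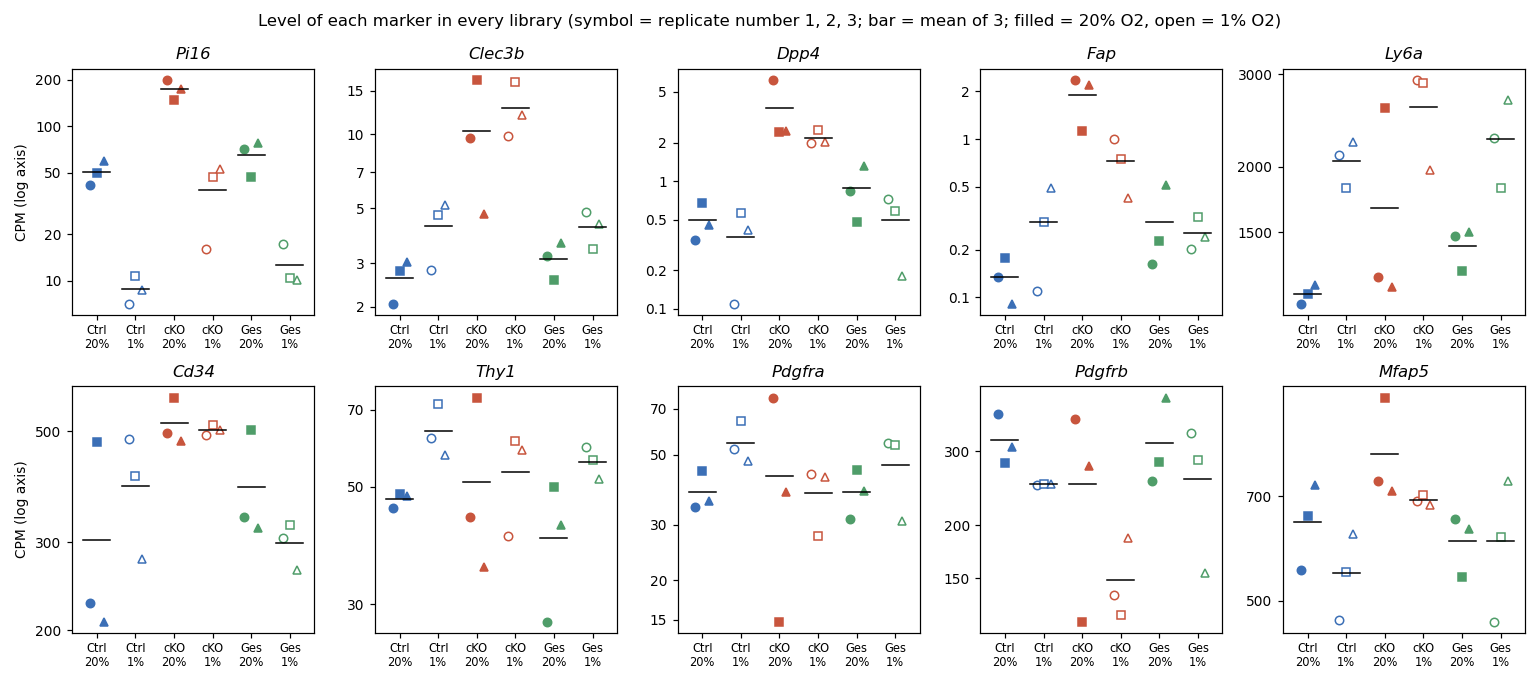
Level of each of the 10 markers in CPM (log axis, scaled separately per panel) in every library, with replicate numbers 1, 2 and 3 as circle, square and triangle, filled for 20% O2 and open for 1% O2, and a bar at the mean. The 1% O2 libraries of Pi16 lie below the 20% O2 libraries in all 3 arms, and the cKO libraries of Dpp4 lie above all others, from 1.99 to 6.2 CPM.

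Whether lower oxygen changed the markers was asked first. Pi16 was the member that differed most between 1% and 20% O2. In Ctrl TFs its level was 41.8, 49.8 and 59.5 CPM (replicates 1, 2 and 3) at 20% O2 and 7.12, 10.7 and 8.71 CPM at 1% O2. In cKO TFs it was 200, 148.3 and 173.7 CPM at 20% O2 and 16.1, 47.2 and 53.2 CPM at 1% O2. In gesicle-treated TFs it was 70.8, 46.7 and 78.5 CPM at 20% O2 and 17.2, 10.4 and 10.1 CPM at 1% O2. In all 3 arms every 1% O2 library lay below every 20% O2 library.

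The libraries of gesicle-treated TFs were not in the contrast that picked Pi16. In those TFs Pi16 fell by 2.38 on the log2 scale (SE 0.35), or 5.2-fold, in 1% O2 (edgeR quasi-likelihood test, Benjamini-Hochberg adjusted p = 0.00146). That test shared its estimate of the spread with the libraries used in the choice, so it is not fully independent of them. The log2 fold change of Pi16 was -2.51 (SE 0.35) in Ctrl and -2.14 (SE 0.35) in cKO TFs, given without a test as those libraries were used in the choice. The shallow cKO 1% O2 replicate 1 library gave the lowest Pi16 level of its group, and without it the log2 fold change in cKO was -1.79 (SE 0.28). The response of cKO minus that of Ctrl was 0.37 for Pi16, smaller than its SE of 0.47.

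Ly6a was higher in 1% O2. In Ctrl TFs it was 1096.9, 1144 and 1188 CPM at 20% O2 and 2101.9, 1822.2 and 2228.6 CPM at 1% O2. In gesicle-treated TFs it was 1475.7, 1263.5 and 1504.8 CPM at 20% O2 and 2266, 1818.2 and 2683.6 CPM at 1% O2. Neither arm showed overlap between oxygen levels. In cKO TFs it was 1233.8, 2584.4 and 1182.3 CPM at 20% O2 and 2928.3, 2889.8 and 1969 CPM at 1% O2, where replicate 2 at 20% O2 lay within the range of the 1% O2 group.

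Averaged over the 3 arms, Ly6a rose 1.65-fold in 1% O2 (log2 fold change 0.72, SE 0.14, edgeR adjusted p = 0.00221). That average treats Ctrl and gesicle-treated libraries as independent, although their same-numbered libraries deviated together. The p-values over the 3 arms, here and below, may therefore be too small. Within single arms it did not pass the test, with log2 fold changes of 0.84 (SE 0.25, adjusted p = 0.0804) in Ctrl, 0.64 (SE 0.25, adjusted p = 0.159) in cKO and 0.67 (SE 0.25, adjusted p = 0.164) in gesicle-treated TFs by edgeR. Ctrl libraries with the same number deviated together at both oxygen levels, and once the replicate number entered the model as a block, Ly6a passed in Ctrl at 0.84 (SE 0.18, edgeR adjusted p = 0.0342). Without the cKO 20% O2 replicate 2 library it passed in cKO as well, at 1.10 (SE 0.18, edgeR adjusted p = 0.00375). That was its only call in 13 alternative fits in cKO, where leaving out 1 library gave log2 fold changes from 0.456 to 1.1. Ly6c1, the related antigen that shares a little sequence with Ly6a, rose over the 3 arms by 0.91 on the log2 scale (SE 0.16, adjusted p = 0.000759 by edgeR).

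**Figure D3:**
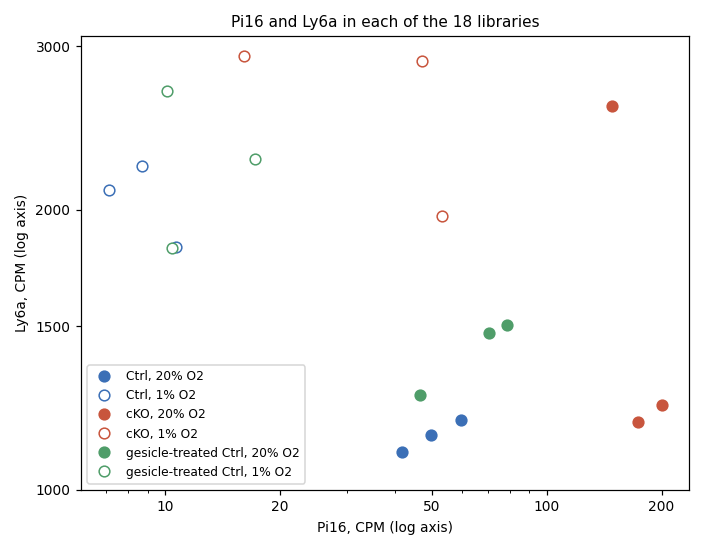
Level of Pi16 (x axis) against Ly6a (y axis) in each of the 18 libraries, both in CPM on log axes, with filled points for 20% O2 and open points for 1% O2. The 1% O2 libraries lie to the upper left of the 20% O2 libraries of their own arm, except for the cKO 20% O2 replicate 2 library at 2584.4 CPM of Ly6a, which is as high as the 1% O2 libraries.

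With a call set at an adjusted p under 0.05 and at least 1.5-fold, 0 of the 8 members tested were called in Ctrl and 0 of 8 in cKO, beside 2.68% and 3.01% of all genes. At an unadjusted p under 0.05 edgeR counted 1 of the 8 in Ctrl and 2 in cKO, against 2761 and 3389 of all 16174 genes. DESeq2 called Ly6a in Ctrl and none of the 8 in cKO. In gesicle-treated TFs 1 of 10, Pi16, was called, beside 2.41% of all genes. Averaged over the arms 1 of the 8 tested, Ly6a, was called, beside 10.5% of all genes, and nothing is read from such small counts. Of the 10 members, 5 did not overlap between oxygen levels in Ctrl (29.7% of all genes), 3 in cKO (20.5%) and 3 in gesicle-treated TFs (24%). The median log2 fold change over the 10 was 0.39 in Ctrl, -0.20 in cKO and -0.12 in gesicle-treated TFs, against -0.01, -0.04 and -0.02 over all genes.

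None of Clec3b, Thy1 and Cd34 passed edgeR's test of oxygen in any arm or over the arms. Clec3b was 2.06, 2.78 and 3.04 CPM in Ctrl at 20% O2 and 2.82, 4.71 and 5.16 CPM at 1% O2, with overlap (log2 fold change 0.69, SE 0.36, edgeR adjusted p = 0.357). Without the cKO 20% O2 replicate 2 library Clec3b was called over the 3 arms. Thy1 averaged 47.4 ± 1.48 CPM (SD, n = 3) at 20% and 63.7 ± 7.34 CPM at 1% O2 in Ctrl, and 40.0 ± 11.2 and 55.8 ± 3.92 CPM in gesicle-treated TFs, with no overlap in either arm. In cKO TFs the Thy1 means were 51.0 ± 20.3 and 53.4 ± 11.4 CPM and overlapped. Cd34 had log2 fold changes of 0.36 in Ctrl, -0.04 in cKO and -0.38 in gesicle-treated TFs. Its Ctrl replicate 2 library at 20% O2 (475.2 CPM) lay far above replicates 1 and 3 (227.4 and 208.4 CPM).

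Neither PDGF receptor passed the test of oxygen. Pdgfra had a log2 fold change of 0.52 in Ctrl, where its groups did not overlap (34.1 to 44.3 CPM at 20% and 47.9 to 63.7 CPM at 1% O2), and of -0.18 (SE 0.40) in cKO TFs. Pdgfrb in Ctrl lay between 281.2 and 367.1 CPM at 20% and between 249.4 and 251.1 CPM at 1% O2. In cKO TFs Pdgfrb was 356.3, 118.3 and 276 CPM at 20% O2 and 137, 122.7 and 186.1 CPM at 1% O2 (log2 fold change -0.75, SE 0.33, edgeR adjusted p = 0.204). Replicate 2 at 20% O2 was the lowest library of all for Pdgfrb and, at 14.8 CPM, for Pdgfra. Without that library Pdgfrb fell by 1.09 in cKO (SE 0.27, edgeR adjusted p = 0.0249), its only call in 13 alternative fits. With 1 library left out, the log2 fold change of Pdgfrb in cKO ran from -1.09 to -0.409.

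Group means of Mfap5 ran from 546 ± 75.3 CPM in Ctrl at 1% O2 to 803.2 ± 138.3 CPM in cKO at 20% O2, and its log2 fold change with oxygen was -0.24 (SE 0.17) in Ctrl, -0.22 (SE 0.17) in cKO and 0.00 (SE 0.17) in gesicle-treated TFs, none past the edgeR test.

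**Figure D4:**
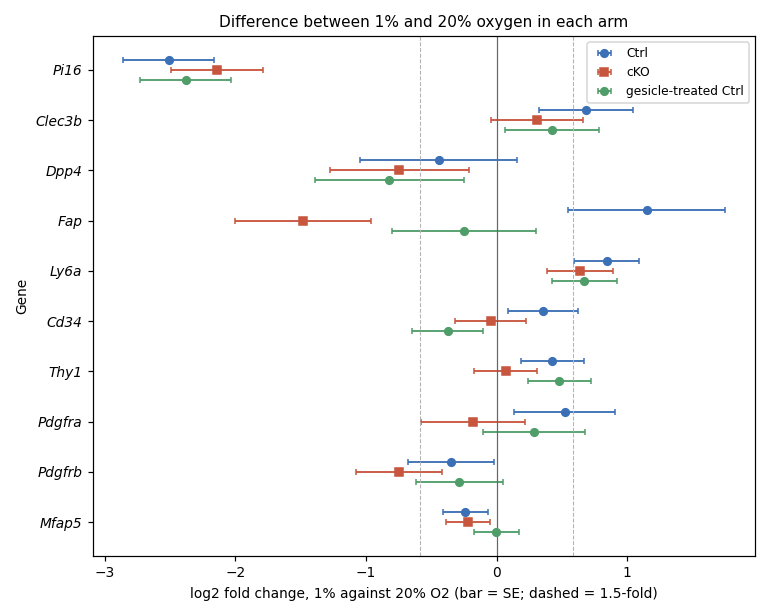
Log2 fold change of each marker between 1% and 20% O2 (x axis, bars are SE) in Ctrl, cKO and gesicle-treated Ctrl TFs, with dashed lines at 1.5-fold. Pi16 lies between -2.51 and -2.14 in all 3 arms, Ly6a between 0.64 and 0.84, and Fap on both sides of 0.

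The proteases were scarce. Dpp4 in Ctrl was 0.349, 0.679 and 0.456 CPM at 20% O2 and 0.11, 0.566 and 0.415 CPM at 1% O2. In gesicle-treated TFs it was 0.834, 0.475 and 1.32 CPM at 20% O2 and 0.726, 0.582 and 0.181 CPM at 1% O2. In cKO it was 6.2, 2.44 and 2.47 CPM at 20% O2 and 1.99, 2.53 and 2.03 CPM at 1% O2. The oxygen groups overlapped in each arm. The log2 fold changes of -0.74 (SE 0.53, adjusted p = 0.438) in cKO, -0.82 (SE 0.57, adjusted p = 0.49) in gesicle-treated TFs and -0.67 (SE 0.33, adjusted p = 0.149) over the 3 arms did not pass edgeR's test.

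Fap, fibroblast activation protein, is a surface and shed gelatinase of activated fibroblasts. In Ctrl it was 0.134, 0.177 and 0.0913 CPM at 20% O2, on 3 to 6 counts a library, and 0.11, 0.298 and 0.492 CPM at 1% O2, on 4 to 19 counts. In cKO it was 2.37, 1.12 and 2.2 CPM at 20% O2 and 0.996, 0.749 and 0.425 CPM at 1% O2, with no overlap. In gesicle-treated TFs it was 0.162, 0.226 and 0.513 CPM at 20% O2 and 0.203, 0.324 and 0.241 CPM at 1% O2, with overlap. The log2 fold change with 1% O2 was 1.15 (SE 0.60) in Ctrl and -1.48 (SE 0.52) in cKO, both given without a test. In gesicle-treated TFs it was -0.25 (SE 0.55, edgeR adjusted p = 0.863). Without the Ctrl 1% O2 replicate 3 library the Ctrl value was 0.54 (SE 0.66).

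The question whether Hif1a genotype altered the response to oxygen was addressed by the difference of the responses, cKO minus Ctrl. None of the 8 markers tested was called, beside 0% of all 16174 genes by edgeR. The 8 had unadjusted p from 0.227 to 0.927 by edgeR, against 442 of all genes at an unadjusted p under 0.05, and DESeq2 called none of them. Fap had the largest difference at -2.63 (SE 0.80), not tested as its choice used those libraries. Pdgfra followed at -0.70 (SE 0.56, edgeR adjusted p = 1). The other 8 lay between -0.40 and 0.37.

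Between genotypes, 4 of the 10 markers stood higher in cKO than in Ctrl TFs at 20% O2. Fap was 13.7-fold higher (log2 fold change 3.78, SE 0.58), Dpp4 7.43-fold (2.89, SE 0.57), Clec3b 3.93-fold (1.97, SE 0.37) and Pi16 3.45-fold (1.79, SE 0.34). For all 4 every cKO library exceeded every Ctrl library, with Clec3b at 9.65, 16.6 and 4.76 CPM in cKO. These 4 met the calling rule, beside 0.538% of all genes, but the genes were picked with this contrast known, so the count carries no weight. Cd34 was 1.71-fold higher (0.77, SE 0.27) without meeting the rule, and its groups did not overlap (478 to 583 CPM in cKO and 208.4 to 475.2 CPM in Ctrl). The other 5 markers lay between -0.35 and 0.54 on the log2 scale. In all, 5 members did not overlap, against 21% of all genes, a count that carries no weight for the same reason.

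At 1% O2 the same 4 genes were again higher in cKO. Dpp4 was 6.03-fold higher (log2 fold change 2.59, SE 0.59), Pi16 4.45-fold (2.15, SE 0.35), Clec3b 3.03-fold (1.60, SE 0.36) and Fap 2.22-fold (1.15, SE 0.55). Clec3b was 9.82, 16.3 and 12 CPM in cKO, above every Ctrl library, while Fap overlapped between the genotypes. Pdgfrb was 1.68-fold lower (-0.75, SE 0.33), with no overlap. Pi16 alone met the calling rule, beside 0.0866% of all genes. In all, 7 members did not overlap, against 27% of all genes. Of these, Pdgfra and Pdgfrb were lower in cKO and the rest higher. The genes were picked with genotype results known, so neither this count nor that of members called carries weight. Log2 fold changes of the 5 markers under 1.5-fold lay between -0.53 and 0.37.

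These genotype values rested on few libraries. The 4 genes met the rule at 20% O2 in the fit of all 18 libraries, and none did when only the 6 libraries compared were fitted, as at 1% O2. Leaving out 1 library at 20% O2 left between 0 and 2 members called, with 1 (Fap) without the cKO replicate 2 library. With sex added as a covariate the same 4 were called, with log2 fold changes from 1.72 to 4.02.

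Markers of other cells and the quality of the libraries were read out beside these genotype values. Of the tenocyte markers tested, 0 of 10 were called between genotypes at either oxygen level by edgeR. At an unadjusted p under 0.05 edgeR counted 1 at 20% and 2 at 1% O2, against 2481 and 2874 of all 16174 genes. Of the mural cell markers 0 of 6 were called (3 and 2 at an unadjusted p under 0.05). The summed level of 11 tenocyte markers was 11341.1 to 13564.9 CPM in Ctrl and 4765.2 to 9821.7 CPM in cKO at 20% O2, and that of 6 mural cell markers was 100.7 to 176.6 CPM in Ctrl and 38.5 to 57.6 CPM in cKO, neither overlapping. The tenocyte sum was carried by collagen, with Col1a1 at a mean of 6335.8 CPM in Ctrl and 2868 CPM in cKO. The median log2 fold change of the list was -0.11, with genes on both sides of 0. Scx, Tnmd, Mkx, Egr1 and Thbs4 had values of 0.07, 0.86, 0.60, 0.53 and 0.21. The other tested markers had lower means in cKO than in Ctrl, as Col1a1 did. These were Col1a2 (2302.3 against 2923.5 CPM), Tnc (185.5 against 400.6), Fmod (555.3 against 682.1) and Comp (315.4 against 456.5). At 1% O2 the tenocyte sums overlapped (6061.2 to 13976.9 and 5517.7 to 9274 CPM) and so did the mural sums (48.8 to 98.2 and 34 to 51.7 CPM). The muscle sums were 24.4 to 47.7 CPM in Ctrl and 12.4 to 18 CPM in cKO at 20% O2, where Acta1, skeletal muscle actin, was called lower in cKO (-1.28, SE 0.22, edgeR adjusted p = 0.0143), and 26.5 to 35.7 against 18.6 to 24.1 CPM at 1% O2. The Schwann cell sums overlapped, at 5.58 to 10.8 CPM in Ctrl and 10.4 to 16.4 CPM in cKO at 20% O2 and 6.13 to 16 against 11.9 to 16 CPM at 1% O2, with median log2 fold changes of 0.96 and 0.83 over the list and 0 of 4 called by edgeR (2 and 0 at an unadjusted p under 0.05). The mitochondrial share was 0.452% to 1.02% in the 6 cKO libraries, above the 0.365% to 0.436% of the 6 untreated Ctrl libraries. The part of these values in the higher levels of Pi16, Clec3b, Dpp4 and Fap was not tested.

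**Figure D5:**
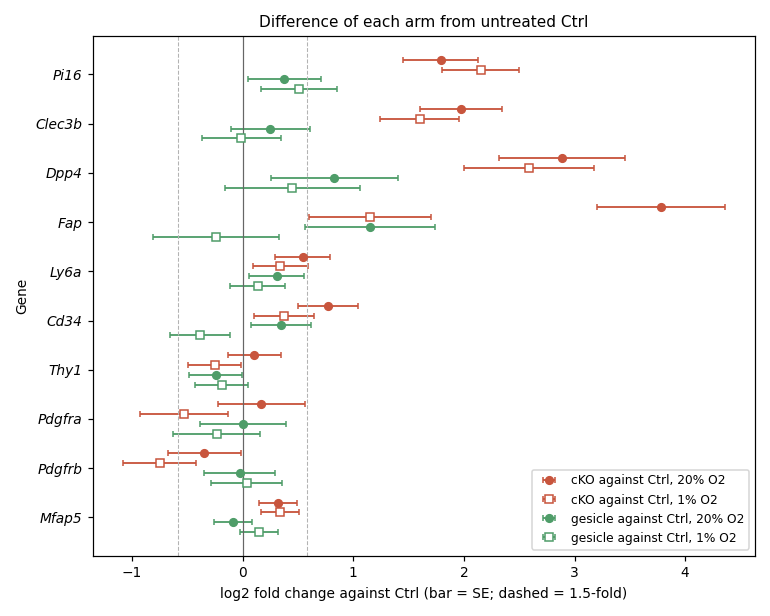
Log2 fold change of each marker against untreated Ctrl TFs (x axis, bars are SE) for cKO and gesicle-treated TFs at 20% O2 (filled) and 1% O2 (open), with dashed lines at 1.5-fold. Pi16, Clec3b, Dpp4 and Fap lie at 1.15 or more in cKO at both oxygen levels, and the gesicle values lie between -0.39 and 1.15.

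Cre delivered by gesicles to control TFs was compared with untreated Ctrl TFs, which share the replicate numbers and sexes. At 20% O2 none of the 8 markers tested was called, beside 0.0247% of all genes. The lowest unadjusted p of the 8 was 0.162 by edgeR, against 594 of all genes under 0.05, and DESeq2 called none of them. Dpp4 (log2 fold change 0.83, SE 0.57, 95% interval -0.37 to 2.03, edgeR adjusted p = 1) and Fap (1.15, SE 0.59) exceeded 1.5-fold with overlapping libraries. Ly6a was the 1 member whose libraries did not overlap (12.5% of all genes), at 0.31 (SE 0.25). At 1% O2 none of the 8 was called by edgeR or DESeq2, beside 0% of all genes, with a lowest unadjusted p of 0.174 against 324 of all genes under 0.05, and log2 fold changes of the 10 ran from -0.38 to 0.51. Every member overlapped there (6.32% of all genes did not).

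Dpp4 and Fap lie side by side on chromosome 2, so the genes around them were read out as well. Gcg, which lies between them, had no count in any library. Slc4a10, next to Dpp4, had 0 to 8 counts in any library and averaged 0.132 ± 0.0229 CPM in cKO and 0.143 ± 0.0199 CPM in Ctrl at 20% O2, so counts of both genes are too low to compare. Ifih1, the cytosolic RNA sensor beyond Fap, was 29.6 ± 19.1 CPM in Ctrl, 11.3 ± 4.4 CPM in cKO and 128.5 ± 55.3 CPM in gesicle-treated TFs at 20% O2.

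Among all tested genes outside the set, Pde9a, Nrk and Cldn1 had the patterns nearest to Pi16, by the root mean square difference of centred log2(CPM + 0.5) over 18 libraries: 0.58, 0.587 and 0.727, against a spread of Pi16 itself of 1.48. Pde9a, a cyclic GMP phosphodiesterase, averaged 17 ± 0.971 CPM in Ctrl and 32 ± 4.22 CPM in cKO at 20% O2, and 4.61 ± 1.54 and 8.54 ± 2.79 CPM at 1% O2. Nrk encodes a kinase and Cldn1 a tight-junction claudin. Nearest to Fap were Gpm6b (0.351), Tspan7 (0.365) and A830082K12Rik (0.367), against a spread of Fap of 0.678. Tspan7, a tetraspanin, averaged 20 ± 5.97 CPM in Ctrl and 54.2 ± 6.92 CPM in cKO at 20% O2. These measures describe likeness across libraries that share genotype and oxygen level.

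Of 11 further progenitor-like fibroblast genes, 2 were called higher in 1% O2 in Ctrl, Ly6c1 (log2 fold change 1.14, SE 0.27, edgeR adjusted p = 0.0311) and Emilin2, an elastic-fibre glycoprotein (0.86, SE 0.21, edgeR adjusted p = 0.0318), beside 2.68% of all genes, and none in cKO or gesicle-treated TFs. Over the 3 arms, where 10.5% of all genes were called, 1 was higher (Ly6c1) and 2 were lower, the semaphorin Sema3c (-0.74, SE 0.17, edgeR adjusted p = 0.00603) and fibrillin-1, Fbn1 (-0.88, SE 0.28, edgeR adjusted p = 0.034). None of the 11 was called between cKO and Ctrl at either oxygen level, beside 0.538% of all genes at 20% and 0.0866% at 1% O2. At an unadjusted p under 0.05 edgeR counted 5 of the 11 at 20% and 3 at 1% O2, against 2481 and 2874 of all 16174 genes. The median log2 fold change of the 11 was 0.26 at 20% O2 against 0.04 over all genes, and -0.02 at 1% O2 against 0.01. Cd55, a complement regulator, had the values 142.1 ± 63.0 CPM in Ctrl and 352.6 ± 19.8 CPM in cKO at 20% O2 (1.31, SE 0.34, edgeR adjusted p = 0.102), and was singled out after its values were seen.

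None of the 7 PDGF ligands and receptors was called in any comparison, while 0% to 10.5% of all genes were. Between cKO and Ctrl at 1% O2, edgeR counted 4 of the 7 at an unadjusted p under 0.05, against 2874 of all 16174 genes. Their median log2 fold change there was -0.34, against 0.01 over all genes. In each other comparison at most 2 of the 7 had such a p. The 7 include Pdgfra and Pdgfrb, markers of the set. Pdgfd, the most abundant ligand, averaged 314.9 to 477.1 CPM across groups, and Pdgfb, which binds both receptors, at most 0.277 CPM. Of the prolyl peptidase family, 6 of 8 genes were tested, and among these only Dpp4 and Fap, markers of the set with Fap chosen on this contrast, met the calling rule between genotypes at 20% O2. Dpp7 averaged 68.2 ± 6.53 CPM in cKO and 58.2 ± 4.69 CPM in Ctrl, while Prep and Dpp8 averaged 158.8 ± 20.0 and 86.9 ± 38.9 CPM in cKO and 178.1 ± 14.1 and 134 ± 4.85 CPM in Ctrl. Of 10 microfibril and elastic-fibre genes, Mfap2 (1.30, SE 0.21, edgeR adjusted p = 0.000407) and Mfap4 (1.36, SE 0.36, edgeR adjusted p = 0.0131) rose over the 3 arms in 1% O2 and Fbn1 fell, 3 of 10 beside 10.5% of all genes. Mfap5, the member of that group studied here, did not pass. Neither sheath gene, Tppp3 or Prg4, was called in any comparison.

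Markers of other cells also moved with oxygen. Of the endothelial list, Tek, the angiopoietin receptor (19.1 to 53.7 CPM across groups), fell over the 3 arms by 0.94 (SE 0.23, edgeR adjusted p = 0.00691), and Kdr, at most 0.459 CPM, was also called lower. Of the 6 mural markers, Rgs5 rose (0.73, SE 0.14, edgeR adjusted p = 0.00165) and Notch3 fell (-1.46, SE 0.36, edgeR adjusted p = 0.00864). The summed endothelial markers were 27.9 to 45.5 CPM at 20% and 11.5 to 27.6 CPM at 1% O2 in Ctrl. Most of that sum was Tek, with means of 36.8 and 19.1 CPM, so it repeats the value of 1 gene. Pecam1 averaged 0.182 and 0.109 CPM there, and Cldn5 and Emcn were at or near 0. Whether endothelial or mural cells had a part in the values of Pi16 or Ly6a was not tested.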

How the data were processed

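Poly-A RNA of tail TFs was sequenced in paired ends. The deposited values are expected counts per gene, which the authors made by trimming with Cutadapt, mapping to GRCm38 with STAR and counting with RSEM 1.3.3. FastQC 0.11.8 and MultiQC 1.20 are named in the submitters' processing notes. Expected counts were rounded to whole numbers here. Groups came from the sample labels, 3 libraries in each of 6 groups. The smallest difference between libraries of a group was 36.3 (chi-square per degree of freedom), so none was a copy of another. The labels do not say whether libraries came from separate cultures. The study's methods state male and female mice (n = 3) as the source of the cells, without tying mice to libraries. A p-value thus measures the spread between these libraries.

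Low counts were filtered by filterByExpr and 1 model of 6 groups was fitted to all 18 libraries by edgeR 4.0.16 in R 4.3.3, using TMM factors and its quasi-likelihood test, with Benjamini-Hochberg adjustment over 16174 genes. A gene was called at an adjusted p under 0.05 and at least 1.5-fold. Alternatives were DESeq2 1.42.0, RLE scaling, no filter, no fold minimum, only the groups compared, a replicate block, leaving out each library, and, chosen after seeing the data, sex as a covariate. On simulated counts for 1% against 20% O2 in Ctrl over 16174 genes, edgeR recovered 57 of 100 genes changed 2-fold and 96 of 100 changed 4-fold. The changed genes were drawn from those averaging over 1 CPM, and libraries were simulated as independent. These rates therefore do not describe genes below that level. Same-numbered libraries deviated together in Ctrl across oxygen levels (correlations of deviations 0.364, 0.372 and 0.664). They also did between Ctrl and gesicle-treated TFs (lowest 0.438 at 20% and 0.272 at 1% O2). Elsewhere at least 1 pair was at or under 0.1. The replicate block was fitted in every comparison, also where the numbers did not deviate together. For oxygen it was set within each arm, so it did not link Ctrl to gesicle-treated libraries.

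The members and all gene lists were chosen with earlier results of these data known. Pi16 and Fap were tested only in the oxygen response of gesicle-treated TFs. A member's fold change was printed on its own where it was called or reached 1.5-fold, and the others as ranges, and values added beside these serve as description. The 3 genes most like Pi16 and Fap were those with the smallest root mean square difference. From each list the called genes were named. Sequences are RefSeq's.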

Additional observations from a re-analysis of the deposited data

Results flagged for a closer look

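Some rows of the count table are transgene sequences, and they gave counts in the arms that carry or received a transgene. The cre row summed to 15 counts and the egfp row to 14 counts over the 6 cKO libraries, each present in 5 of them, while the 6 Ctrl libraries had 0. The tdtomato row summed to 8 counts over the 6 gesicle-treated libraries, present in 5 of them, and to 0 in Ctrl. These counts were flagged as signal outside the comparisons and above the Ctrl libraries, and the cre row was at 0 in the gesicle-treated libraries.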

How the results depend on the processing

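Counts of members that met the calling rule include Pi16 and Fap, as a description. None of the fold changes, levels and counts that were recomputed changed sign, and these counts matched within 1.5 times in 113 of the alternatives and moved in 21. In 1% against 20% O2 in Ctrl, 2 members (Pi16 and Ly6a) in place of 1 were called with no filter, with the replicate block, with only the groups compared and with DESeq2. In cKO 0 were called with only the groups compared, and leaving out 1 library gave 1 to 3, the 3 (Pi16, Ly6a and Pdgfrb) without the 20% O2 replicate 2 library. Over the 3 arms leaving out 1 library gave 2 to 3. Between cKO and Ctrl at 20% O2, 4 became 0 with only the groups compared and 0 to 2 with 1 library left out. There, 0 were called without Ctrl replicate 1 or 3, Cd34 and Fap without Ctrl replicate 2, Fap and Clec3b without cKO replicate 1 or 3, and Fap alone without cKO replicate 2. At 1% O2, 1 became 3 (Pi16, Dpp4 and Clec3b) with no filter and with DESeq2, 0 with only the groups compared, and 0 to 1 with 1 library left out. The cause of these moves was not tested. The replicate block gave the same counts of members called in every other comparison, and RLE scaling moved no median by more than 0.027. Pi16 in gesicle-treated TFs was called in 13 of 13 alternatives, with log2 fold changes from -2.67 to -2.23 and edgeR or DESeq2 adjusted p from 6.58e-10 to 0.0203. Ly6a over the 3 arms was called in 24 of 24, from 0.64 to 0.87, with edgeR or DESeq2 adjusted p from 2.09e-05 to 0.00652. None of these fits linked same-numbered Ctrl and gesicle-treated libraries. In Ctrl alone Ly6a was called in 4 of 13. Counts over all genes moved more: 204 to 770 (main 434) for oxygen in Ctrl, 84 to 1117 (487) in cKO, 120 to 732 (390) in gesicle-treated TFs, 1492 to 3980 (1697) over the arms, 0 to 46 (4) for gesicles at 20% O2, 1 to 406 (87) for cKO at 20% and 0 to 246 (14) at 1% O2. Fap between genotypes at 1% O2 was 1.55 with sex as a covariate, against 1.15 without it. Depth limits Fap and Dpp4 most: Ctrl values of Fap rested on as few as 3 counts, and the shallowest library had a floor of 0.437 CPM.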
